A study of Homo sapiens with 6 samples.

Results

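The mitosis and spindle genes are 56 genes that drive cells into and through division. They were chosen by symbol from a list of mitotic kinases, kinesins, centromere proteins and checkpoint proteins, out of 78932 gene identifiers in the count files. All 56 were found, and all 56 passed the filter on low counts that kept 17677 genes for testing. The cells were Karpas-45, an established line of human T-lineage acute lymphoblastic leukemia. One group is the scramble control (genotype WT) and the other carried shMEF2CKD2, a lentiviral short hairpin RNA against the transcription factor MEF2C (genotype MEF2C KD), and both are labelled untreated. The series text gives a GFP-linked vector and sorting of GFP-positive cells 120 hours after transduction, without saying separately how the scramble cells were handled. RNA sequencing was run on 3 libraries of each group, named here scramble and MEF2C hairpin replicates 1 to 3. The labels call these technical replicates of 1 line and 1 hairpin, and every p-value here reflects the variation among technical replicates alone.

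Cyclin B and CDK1 form the kinase that starts mitosis. Polo and Aurora kinases then shape the spindle, kinesin motors move microtubules and chromosomes, and the spindle checkpoint holds the anaphase-promoting complex until every kinetochore is attached. Most of these genes are transcribed late in the cell cycle, so in dividing cells their mRNA levels follow the share of cells in G2 and M. Their promoters are known for 2 short elements, the cell cycle homology region, bound by the MuvB complexes, and the CCAAT box, bound by NF-Y.

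Promoters were found in RefSeq (GRCh38.p14) for 50 of the 56 genes, in windows from 250 bases before to 50 bases after the transcript start. AURKA, TPX2, BIRC5, BUB3, TTK and UBE2C were not matched. TTTGAA or TTCGAA, the cores of the cell cycle homology region, were searched on both strands. At least 1 of a gene's promoters held one in 40 of the 50 genes (80.0%), against 2767 of 15843 protein-coding genes (17.5%). CCAAT on either strand was present in 40 of 50 (80.0%), against 42.1% of protein-coding genes, and 25 of 50 held at least 2 in 1 promoter, against 14.8%. Both elements stood in 1 promoter in 31 of the 50 genes (62.0%), against 7.28%. A match is a run of letters, not a shown binding site. The 10 windows below, on the gene's strand, are examples picked by hand from the 40 genes, to show the element in genes that rose (CDC25C, CKS2, ANLN, KIF23), fell (MKI67, KIF11) or passed no test (PLK1, CCNB2, CDC20, ESPL1) in the comparison that follows. Capitals mark 1 core, and ANLN, MKI67 and CDC20 hold a second in the same promoter that is not marked. For CDC25C another promoter also held a core, which may be the same site.
CDC25C, chr5:138331817-138331846, minus strand: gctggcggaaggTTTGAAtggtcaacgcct
CKS2, chr9:89311154-89311183, plus strand: cgggctgtcggaTTCAAAtccggatcgttg
ANLN, chr7:36389830-36389859, plus strand: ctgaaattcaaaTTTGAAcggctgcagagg
KIF23, chr15:69414282-69414311, plus strand: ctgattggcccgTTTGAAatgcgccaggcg
MKI67, chr10:128126435-128126464, minus strand: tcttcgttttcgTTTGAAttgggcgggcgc
KIF11, chr10:92593090-92593119, plus strand: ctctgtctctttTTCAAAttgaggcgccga
PLK1, chr16:23678848-23678877, plus strand: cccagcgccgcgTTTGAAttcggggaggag
CCNB2, chr15:59105105-59105134, plus strand: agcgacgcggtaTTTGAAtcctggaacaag
CDC20, chr1:43358904-43358933, plus strand: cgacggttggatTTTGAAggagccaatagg
ESPL1, chr12:53268256-53268285, plus strand: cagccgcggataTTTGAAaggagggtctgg
Between 22 and 25 bases separate the marked core from the annotated start in CDC25C, CKS2, MKI67, KIF11, PLK1, CCNB2 and ESPL1, and 14 in ANLN, 49 in KIF23 and 59 in CDC20. These examples over-represent the first spacing: of the 40 genes with a core, 9 had one at 22 to 25 bases. Counted in each promoter separately, the 57 core positions in those 40 genes spread from 241 bases before the start to beyond it (-49). A site within reach of more than 1 start can count more than once. In 11 genes every core lay across or past the start. CKS2 and KIF11 carry the core on the other strand, read here as TTCAAA. The core was present in 12 of the 17 genes with a promoter that were called higher, in 4 of 6 called lower and in 24 of 27 not called.

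The gene totals ran from 45560303 to 97077335 reads per library, and even the lowest of the 56 genes had at least 125 reads in every library. Reads that aligned to more than 1 place took between 3.56% and 6.86% of all reads in 5 libraries and 16.1% in MEF2C hairpin replicate 3. Counts of MEF2C itself were 2, 1 and 0 with the scramble control and 2, 0 and 0 with the hairpin, all under a floor of 3 reads, so the targeted gene cannot check the labels. All 11 T-lineage markers listed, CD3E and LCK among them, were detected, and their summed level ran from 3254 to 3348 CPM in scramble and from 3434 to 3540 CPM in MEF2C hairpin libraries. At least 1 CPM in some library was reached by 2 of 6 B-lineage, 1 of 9 myeloid, 0 of 5 NK, 1 of 5 erythroid and 1 of 8 embryonic kidney markers (the virus was made in kidney-derived cells). CD22, SALL1, EYA1 and LIN28B were at 0 reads. The part of these marker differences in the results below was not tested.

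Per length of exon, the highest scramble level among the 56 genes was that of CKS2, the small CDK-binding subunit, at 221 RPKM (reads per kilobase of exon, scaled to library size), on an exonic length of 613 bases. TOP2A, the topoisomerase that untangles sister chromatids, followed at 163 RPKM, TPX2 at 139, CCNA2 at 109 and MKI67 at 102 RPKM. At the bottom stood CDC25C at 4.66 RPKM, PRC1 at 1.12 and NUSAP1 at 1.06 RPKM. PRC1 and NUSAP1 are the 2 genes with over 50% of their exonic bases inside exons of other genes, 58.4% and 62.2% in GENCODE 29. For NUSAP1 the other gene is AC087721.2 and for PRC1 mainly AC068831.7, both annotated as protein-coding on the same strand. HTSeq sets reads that it cannot assign to 1 gene aside. In the deposited tables such ambiguous reads took between 3.37% and 3.97% of a library. No source used here names the annotation used for counting, and the part of the overlap in the low levels of PRC1 and NUSAP1 was not tested.

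The comparison of MEF2C hairpin with scramble asks what differs between the 2 groups. MEF2C was under the floor of 3 reads in every library, and 1 hairpin was used. An effect of losing MEF2C was not tested apart from other effects of the hairpin. Mitotic genes changed in both directions and by small amounts. Of the 56, 18 were higher (32.1%), 9 were lower (16.1%), and 29 did not pass the test. Fold changes are log2 of MEF2C hairpin over scramble, and a call is an adjusted p under 0.05 in edgeR's quasi-likelihood test. Over all 17677 tested genes 13.5% were called higher and 15.3% lower, 28.8% in all. The share of the 56 called lower was thus near that of all tested genes. The median absolute log2 fold change of the 27 called genes was 0.11, against 0.19 for all called genes of the series, and no member reached 0.3 in either direction. Groups did not overlap in 25 of the 27 called genes and in 31 of all 56, where 39.9% of all tested genes did not overlap. Over the 56 genes the median log2 fold change was 0.03, beside 0.00 over all tested genes. ASPM and NCAPG were called although their groups overlapped. The 27 uncalled genes of at least 20 CPM had, in this fit, log2 fold changes between -0.05 and 0.08, and their 95% intervals lay between -0.10 and 0.15.

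**Figure D1:**
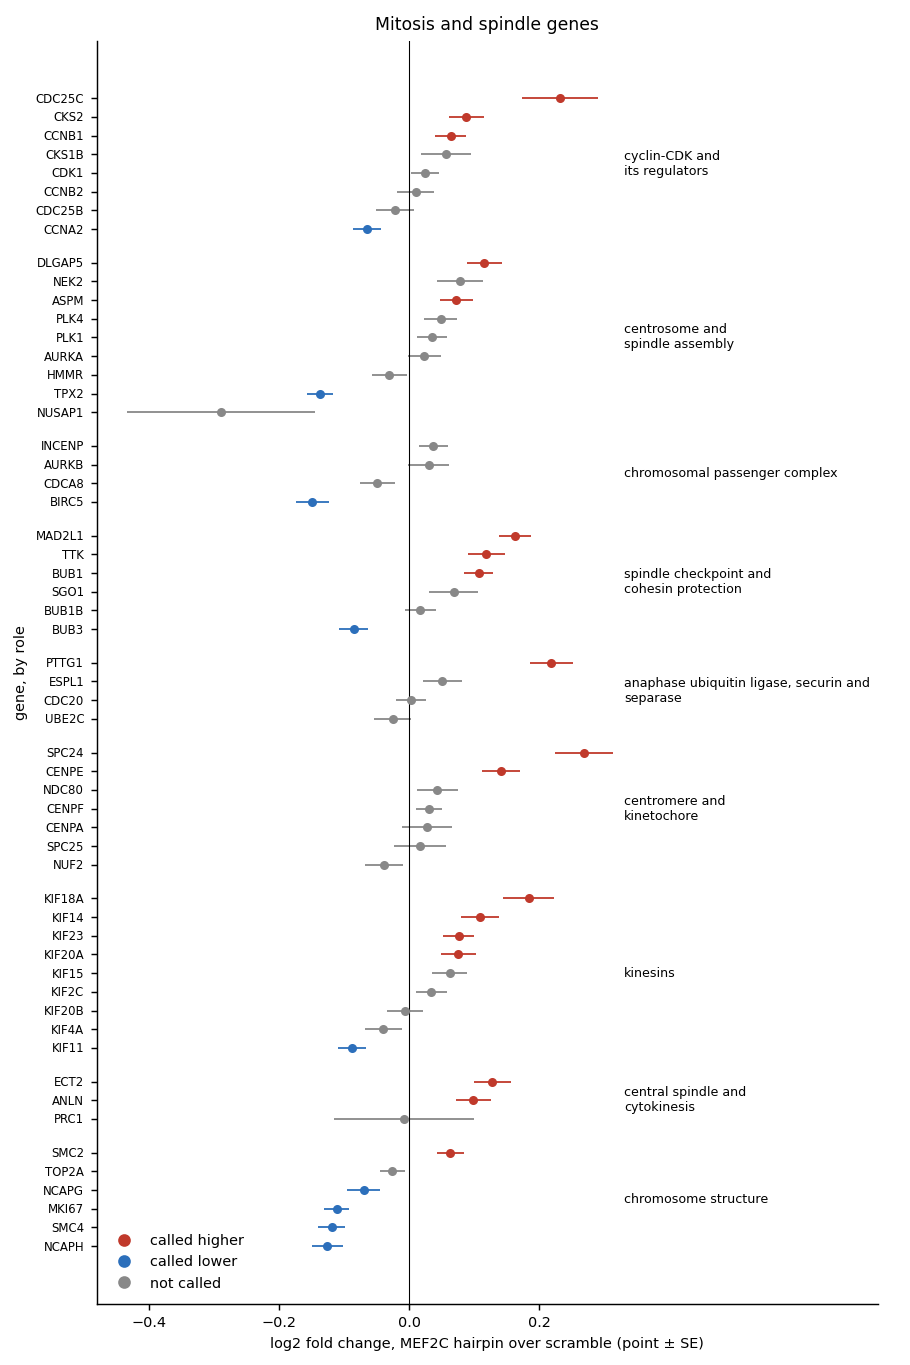
Log2 fold change of each of the 56 genes (x axis, MEF2C hairpin over scramble) with its SE, grouped by role (y axis) and coloured by call. SPC24 at 0.27 and CDC25C at 0.23 lie farthest to the right, BIRC5 at -0.15 is the lowest called gene, and the wide bar of NUSAP1 belongs to a gene of 3.05 CPM.

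Most of the mitotic genes were expressed at high level, a range in which genes of this series were called lower more often than higher. Of the 56, 42 had a mean of at least 100 CPM in scramble, and of these 13 were called higher (31.0%) and 9 lower (21.4%). Over all 2581 tested genes of that class 11.5% were higher and 46.4% lower, 57.9% in all. Groups did not overlap in 24 of the 42, beside 65.0% of the class, and the medians were 0.03 for the 42 genes and -0.05 for the class. Between 20 and 100 CPM, 4 of 11 were higher and 0 lower, against 16.8% and 23.0% of 5011 genes (39.8% in all), with medians of 0.07 and -0.02. Groups did not overlap in 5 of those 11, beside 50.3% of the class. Among the remaining genes CDC25C was higher, and PRC1 and NUSAP1 were not called. These shares are descriptions of the list, since its genes vary together and are not replicates.

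**Figure D2:**
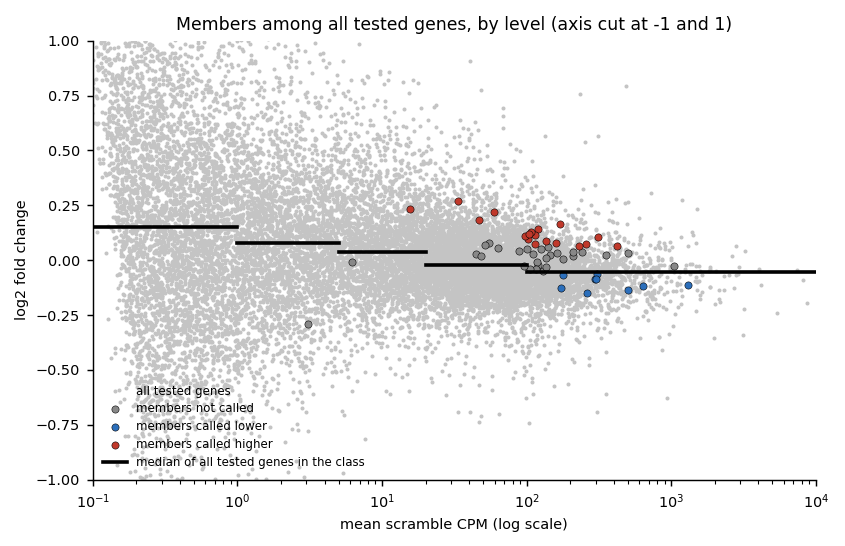
Log2 fold change (y axis) against mean scramble CPM (x axis, log scale) for all tested genes in grey and the 56 genes in colour, with black bars for the median of all tested genes in each class of level. The class median falls to -0.05 at 100 CPM and above, and 13 of the 42 mitotic genes in that class were called higher.

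The balance of directions changed with the scaling. Scaled by TMM, the 56 genes together made up 11422 ± 135 CPM in scramble and 11354 ± 56.1 CPM with the hairpin (SD, n = 3 each). As a plain share of gene reads they took 1.12% ± 0.0146 and 1.15% ± 0.00984 (SD, n = 3 each). With library sizes from gene totals alone, which moves the median of all tested genes from 0.00 to 0.05, 31 genes were called higher (55.4%) and 5 lower (8.93%), against 18.8% and 9.69% of all tested genes. That setting added 13 calls, all higher: AURKA, CDK1, CENPF, CKS1B, ESPL1, INCENP, KIF15, KIF2C, NDC80, NEK2, PLK1, PLK4 and SGO1. Corrected for GC content and length, with that median at -0.04, the counts were 15 higher and 14 lower of 56, against 11.0% higher and 23.8% lower of 15903 genes, so the share lower was near that of all genes. It added 5 calls, all lower: CDC20, CDC25B, CDCA8, INCENP and UBE2C. INCENP was thus called in opposite directions by these 2 settings. Of the 27 called genes, 17 were called in the same direction in every one of 16 alternatives run. These are 12 higher genes, ANLN, BUB1, CDC25C, CENPE, DLGAP5, ECT2, KIF14, KIF18A, MAD2L1, PTTG1, SPC24 and TTK, and 5 lower genes, BIRC5, MKI67, NCAPH, SMC4 and TPX2. None of the 27 changed sign in any of them. Median GC content of the transcripts was 40.4% in the higher, 42.1% in the lower and 43.7% in the uncalled genes, beside 48.4% over all tested genes, and its part in the calls beyond that correction was not tested.

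Among the cyclins, CDK1 and their regulators, 3 of 8 were higher and 1 lower. This and the later counts by role stand beside 13.5% higher and 15.3% lower over all tested genes. At 100 CPM and above those shares were 11.5% and 46.4%, and between 20 and 100 CPM 16.8% and 23.0%. CDC25C, a phosphatase that activates CDK1 (ENSG00000158402.21, chromosome 5, 138285265 to 138338355 in GRCh38), gave 15.8, 15.6 and 15.3 CPM in scramble replicates 1 to 3 and 18.2, 18.5 and 18.1 CPM in MEF2C hairpin replicates 1 to 3. Every MEF2C hairpin library lay above every scramble library, and the log2 fold change was 0.23 (SE 0.0587, adjusted p = 0.00218), or 17.4%. CCNB1, the cyclin B that partners CDK1 (ENSG00000134057.15), gave 233, 225 and 235 CPM with the scramble control and 238, 236 and 250 CPM with the MEF2C hairpin. The groups lay close together without overlap, at a log2 fold change of 0.06 (SE 0.0243, adjusted p = 0.0443), and the call was lost without scramble replicate 2 (adjusted p = 0.231) or without MEF2C hairpin replicate 3 (0.336), and in DESeq2 (0.0719), limma-voom (0.0678) and the GC content and length correction (0.132), in all in 6 of 16 alternatives. CCNA2, cyclin A of S phase and G2 (ENSG00000145386.11), gave 308, 302 and 304 CPM with the scramble control and 289, 294 and 291 CPM with the MEF2C hairpin. All MEF2C hairpin values were lower (log2 fold change -0.06, SE 0.0211, adjusted p = 0.0171), and without scramble replicate 1 or MEF2C hairpin replicate 1 the adjusted p was 0.0679 each, and with gene totals alone 0.526, and the call was lost in 5 of 16 alternatives.

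CDK1 itself (ENSG00000170312.17) gave 363, 343 and 355 CPM with the scramble control and 354, 361 and 364 CPM with the MEF2C hairpin. These ranges overlapped, and the log2 fold change of 0.02 had a 95% interval from -0.02 to 0.07 (adjusted p = 0.467). CKS2, which binds CDK1, rose by 0.09 (adjusted p = 0.0117), a call lost without scramble replicate 1, without MEF2C hairpin replicate 1 or 2 and with the GC content and length correction. Its close relative CKS1B stood at 0.06 (adjusted p = 0.306), CCNB2 at 0.01 (0.845) and CDC25B, another CDK-activating phosphatase, at -0.02 (0.638), although the GC content and length correction put CDC25B at -0.13 (adjusted p = 0.000151).

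Genes of centrosomes and spindle assembly gave 2 higher and 1 lower of 9. TPX2, which nucleates spindle microtubules and activates Aurora A (ENSG00000088325.16, chromosome 20, 31739271 to 31801805), gave 511, 503 and 494 CPM with the scramble control and 456, 461 and 455 CPM with the MEF2C hairpin. The groups were well apart, with a log2 fold change of -0.14 (SE 0.0201, adjusted p = 1.17e-06). DLGAP5, a microtubule-binding spindle protein (ENSG00000126787.13), gave 117, 115 and 111 CPM with the scramble control and 125, 121 and 125 CPM with the MEF2C hairpin. It rose by 0.12 (SE 0.0269, adjusted p = 0.000911), with no overlap.

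The kinases of this group did not pass the test. AURKA, the Aurora kinase of spindle poles (ENSG00000087586.18), gave 146, 148 and 142 CPM with the scramble control and 149, 148 and 145 CPM with the MEF2C hairpin. PLK1, the Polo kinase of mitotic entry and spindle assembly (ENSG00000166851.15), gave 209, 214 and 207 CPM with the scramble control and 222, 212 and 213 CPM with the MEF2C hairpin. Both overlapped between groups. The 95% intervals of their log2 fold changes ran from -0.03 to 0.07 for AURKA (adjusted p = 0.545) and from -0.01 to 0.08 for PLK1 (0.299), and with the GC content and length correction PLK1 was at -0.06 (adjusted p = 0.0638), whereas gene totals alone called it higher at 0.08 (0.00802). PLK4, which starts centriole duplication, stood at 0.05 (0.160) and the centrosomal kinase NEK2 at 0.08 (0.0999). ASPM, a spindle-pole protein, rose by 0.07 (adjusted p = 0.0311), a call lost in DESeq2 and without any 1 of scramble replicates 2 and 3 and MEF2C hairpin replicates 2 and 3. HMMR, a spindle-associated hyaluronan receptor, was at -0.03 (0.460) and NUSAP1, which bundles spindle microtubules, at -0.29 (SE 0.145, adjusted p = 0.141), with 2.80 to 3.26 CPM in scramble and 2.45 to 2.62 CPM in MEF2C hairpin libraries.

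Of the chromosomal passenger complex, which corrects wrong attachments at centromeres, 1 of 4 subunits passed the test in the reported fit. BIRC5, or survivin (ENSG00000089685.15, chromosome 17, 78214186 to 78225636), gave 256, 258 and 274 CPM with the scramble control and 241, 241 and 229 CPM with the MEF2C hairpin. It fell in all 3 against all 3, with a log2 fold change of -0.15 (SE 0.0251, adjusted p = 1.17e-05). AURKB, the kinase of the complex (ENSG00000178999.13), gave 103, 114 and 115 CPM with the scramble control and 114, 111 and 114 CPM with the MEF2C hairpin. Scramble replicate 1 was the lowest of the 6 values, and the log2 fold change of 0.03 (adjusted p = 0.540) became -0.02 without it and -0.06 with the GC content and length correction. The scaffold INCENP stood at 0.04 (adjusted p = 0.225) and CDCA8, or borealin, at -0.05 (0.176). With the GC content and length correction both were called lower, INCENP at -0.07 (adjusted p = 0.0109) and CDCA8 at -0.10 (0.00181), whereas gene totals alone called INCENP higher at 0.08 (0.00453).

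Spindle checkpoint genes gave 3 higher and 1 lower of 6. MAD2L1, the checkpoint protein that inhibits CDC20 (ENSG00000164109.14, chromosome 4, 120055608 to 120067074), gave 166, 168 and 174 CPM with the scramble control and 191, 188 and 190 CPM with the MEF2C hairpin. The lowest MEF2C hairpin value was well above the highest scramble value, with a log2 fold change of 0.16 (SE 0.0241, adjusted p = 1.26e-06). The checkpoint kinases TTK and BUB1 rose by 0.12 (adjusted p = 0.00113) and 0.11 (adjusted p = 0.000252), also without overlap. BUB3, the adaptor that carries BUB1 and BUB1B to kinetochores (ENSG00000154473.18), gave 299, 302 and 296 CPM with the scramble control and 288, 275 and 283 CPM with the MEF2C hairpin. It was lower in every library (log2 fold change -0.09, SE 0.0220, adjusted p = 0.00262), a call lost with gene totals alone. BUB1B stood at 0.02 (0.664) and SGO1, shugoshin, which protects centromeric cohesin, at 0.07 (0.184).

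At the exit from metaphase, securin was the 1 gene of 4 called in the reported fit. PTTG1, the securin that holds separase inactive (ENSG00000164611.13, chromosome 5, 160421822 to 160428744), gave 60.0, 60.7 and 58.5 CPM with the scramble control and 70.4, 69.0 and 69.1 CPM with the MEF2C hairpin. It rose in each library, by log2 0.22 (SE 0.0333, adjusted p = 2.12e-06), or 16.3%. ESPL1, separase itself, stood at 0.05 (adjusted p = 0.223). CDC20, which activates the anaphase-promoting complex, was at 0.00 with a 95% interval from -0.04 to 0.05 (adjusted p = 0.944), and UBE2C, its ubiquitin-conjugating enzyme, at -0.03 (0.568). Corrected for GC content and length, CDC20 was called lower at -0.12 (adjusted p = 0.000112) and UBE2C at -0.10 (0.00428). PTTG1, CKS1B and CKS2 have processed copies elsewhere in the genome, and reads that match such a copy equally well are not in these counts.

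Centromere and kinetochore genes gave 2 higher and 0 lower of 7. SPC24, a subunit of the NDC80 complex that anchors it at the kinetochore (ENSG00000161888.12, chromosome 19, 11131520 to 11155808), gave 31.6, 34.5 and 34.3 CPM with the scramble control and 41.9, 40.0 and 38.8 CPM with the MEF2C hairpin. The groups were apart, and 0.27 (SE 0.0450, adjusted p = 1.06e-05), or 20.5%, was the largest change among the called genes of the list. The other subunits of that complex were not called: SPC25 at 0.02 (adjusted p = 0.815), NDC80 at 0.04 (0.349) and NUF2 at -0.04 (0.355). CENPE, a kinetochore motor, rose by 0.14 (adjusted p = 0.000225), while the centromeric histone CENPA was at 0.03 (0.667) and the large kinetochore protein CENPF at 0.03 (0.284).

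**Figure D3:**
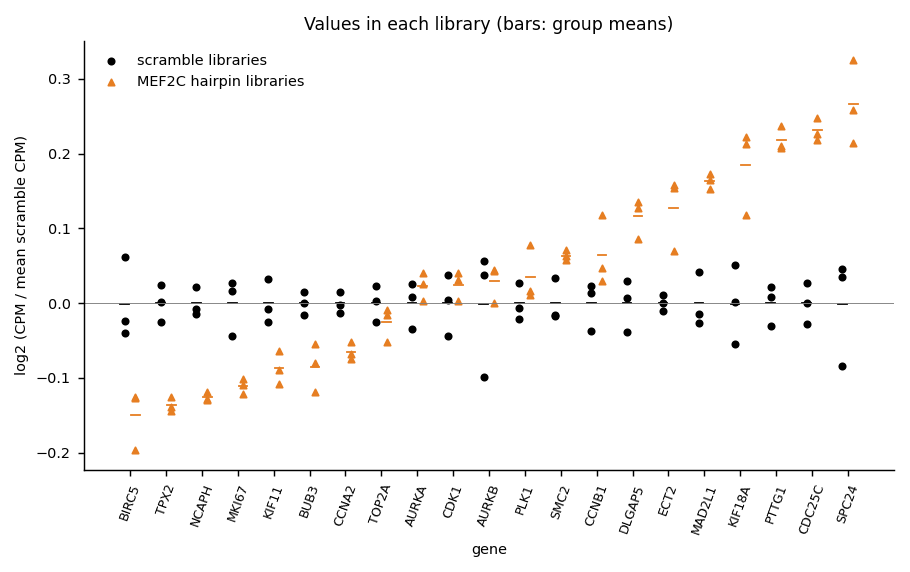
Log2 of CPM over the mean scramble CPM (y axis) in each of the 3 scramble (circles) and 3 MEF2C hairpin libraries (triangles) for the 21 genes given by library, from BIRC5 to SPC24 (x axis), with bars at the group means. TOP2A, AURKA, CDK1, AURKB and PLK1, in the middle, are the genes that were not called.

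Of 9 kinesins 4 were higher and 1 lower, beside 13.5% and 15.3% of all tested genes. KIF18A, which shortens microtubules at aligned chromosomes (ENSG00000121621.7, chromosome 11, 28020620 to 28108308), gave 48.5, 45.1 and 46.9 CPM with the scramble control and 50.9, 54.3 and 54.7 CPM with the MEF2C hairpin. MEF2C hairpin replicate 1 was the lowest of its group and still above all scramble libraries (log2 fold change 0.18, SE 0.0393, adjusted p = 0.000341). KIF11, the Eg5 motor that pushes spindle poles apart (ENSG00000138160.7), gave 310, 298 and 301 CPM with the scramble control and 285, 281 and 290 CPM with the MEF2C hairpin. It went the other way, by -0.09 (SE 0.0220, adjusted p = 0.00187), a call lost with gene totals alone.

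Another 3 kinesins were called higher. KIF14 rose by 0.11 (adjusted p = 0.00335), KIF23, the motor of centralspindlin, by 0.08 (0.0132) and KIF20A by 0.08 (0.0290). The call of KIF23 was lost without MEF2C hairpin replicate 2 (adjusted p = 0.101), and that of KIF20A without scramble replicate 1 or 3 or MEF2C hairpin replicate 2 or 3, with the GC content and length correction and with no filter. KIF15, a spindle motor that can back up KIF11, stood at 0.06 (0.0739), the microtubule depolymerase KIF2C at 0.03 (0.320), KIF20B at -0.01 (0.897) and the chromosome motor KIF4A at -0.04 (0.337).

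In cytokinesis, 2 of 3 genes were higher. ECT2, which activates RhoA at the division plane (ENSG00000114346.14), gave 108, 106 and 107 CPM with the scramble control and 112, 119 and 119 CPM with the MEF2C hairpin. The groups did not overlap (log2 fold change 0.13, SE 0.0279, adjusted p = 0.000437). ANLN, the scaffold of the contractile ring, rose by 0.10 (adjusted p = 0.00453), and PRC1, which bundles central spindle microtubules, was at -0.01 (SE 0.108, adjusted p = 0.970).

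Chromosome structure genes were the group with most members lower, 4 of 6, beside 1 higher. All 6 had at least 173 CPM in scramble, and of all tested genes of at least 100 CPM 46.4% were lower and 11.5% higher. MKI67, the coat protein of mitotic chromosomes and proliferation marker (ENSG00000148773.14, chromosome 10, 128096659 to 128126385), gave 1325, 1335 and 1271 CPM with the scramble control and 1214, 1204 and 1221 CPM with the MEF2C hairpin. It was lower in all 3, with a log2 fold change of -0.11 (SE 0.0192, adjusted p = 1.78e-05). TOP2A (ENSG00000131747.15) gave 1068, 1053 and 1033 CPM with the scramble control and 1014, 1039 and 1045 CPM with the MEF2C hairpin. Its groups overlapped, at -0.03 (95% interval -0.06 to 0.01, adjusted p = 0.353), and with gene totals alone it was at 0.02 (adjusted p = 0.512).

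Condensin, the ring that compacts chromosomes, had subunits called in both directions in the reported fit, among those on this list. NCAPH, its kleisin subunit (ENSG00000121152.10), gave 172, 176 and 171 CPM with the scramble control and 159, 158 and 158 CPM with the MEF2C hairpin, a log2 fold change of -0.13 (SE 0.0237, adjusted p = 6.44e-05) with no overlap. SMC4, an ATPase of the ring, fell by 0.12 on the log2 scale (adjusted p = 2.07e-05) and NCAPG by 0.07 (adjusted p = 0.0343). The call of NCAPG was lost in 10 of 16 alternatives, among them those without scramble replicates 1 or 3 or MEF2C hairpin replicates 1 or 2, and exons of other genes cover 25.6% of SMC4 and 33.1% of NCAPG. SMC2, the other ATPase (ENSG00000136824.19), gave 431, 416 and 416 CPM with the scramble control and 440, 438 and 442 CPM with the MEF2C hairpin. It was higher in each (log2 fold change 0.06, SE 0.0206, adjusted p = 0.0173), a call lost without any 1 of scramble replicates 2 and 3 and MEF2C hairpin replicates 2 and 3.

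Ratios between partner genes within a library do not depend on the scaling factor of that library. The GC content and length correction differs between genes, can change such ratios, and was not applied to them. In all, 7 such pairs were compared after their values had been seen, as log2 of the ratio of reads per kilobase. The ratio of SMC2 to SMC4 was -0.22, -0.23 and -0.21 in scramble and -0.00, -0.05 and -0.06 in MEF2C hairpin libraries, a difference of 0.18. That of SPC24 to SPC25, which bind each other, differed by 0.26, from -1.16 ± 0.0683 to -0.90 ± 0.0894 (SD, n = 3 each). BIRC5 to AURKB differed by -0.18, from 0.48 ± 0.0612 to 0.30 ± 0.0578, and TPX2 to AURKA by -0.16, from 1.49 ± 0.0219 to 1.33 ± 0.0179 (SD, n = 3 each). BUB1 to BUB3 differed by 0.19, PTTG1 to ESPL1 by 0.17 and CCNB1 to CCNA2 by 0.13. Each pair joins a gene that was called to one that was not called or was called the other way, so a gap between the groups follows from the choice of pairs, and these ratios are a description with no test.

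**Figure D4:**
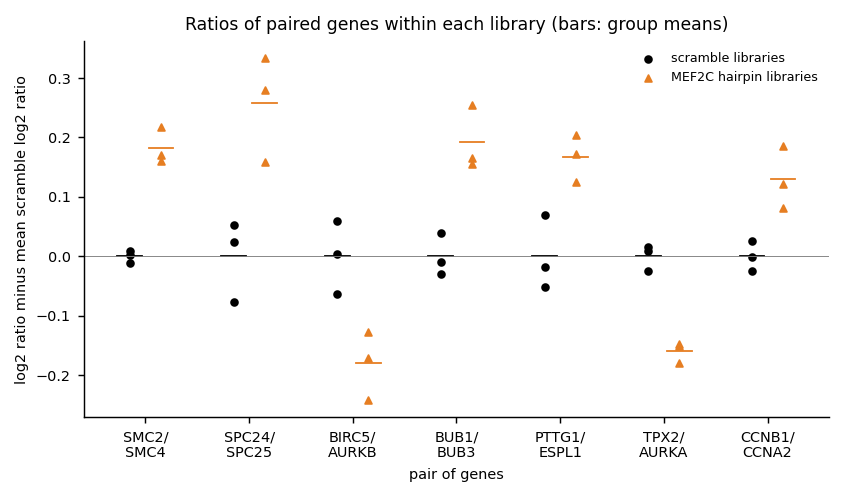
Log2 ratio of the levels of 2 partner genes minus its mean in scramble (y axis) in each of 3 scramble (circles) and 3 MEF2C hairpin libraries (triangles), for 7 pairs (x axis), with bars at the group means. The pairs were chosen after their values were seen, and the differences run from 0.13 for CCNB1 over CCNA2 to 0.26 for SPC24 over SPC25 and -0.18 for BIRC5 over AURKB.

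Of 160 genes in 7 further lists 158 were tested, and 16 were called higher and 49 lower. Their median change was -0.03 on the log2 scale. At 100 CPM and above 7 of 80 were higher and 36 lower, near the 11.5% and 46.4% of all tested genes at that level. Between 20 and 100 CPM 8 of 63 were higher and 12 lower (12.7% and 19.0%), beside 16.8% and 23.0%. These genes had a median level of 102 CPM in scramble, beside 133 CPM for the 56, and the difference between the lists was not tested. Subunits and regulators of the anaphase-promoting complex gave 1 higher and 5 lower of 17, with ANAPC16 at 0.09 and UBE2S, its chain-extending enzyme, at -0.24. Other centromere, kinetochore and checkpoint genes gave 3 higher and 7 lower of 38, with CENPH at 0.11 and SKA2 at -0.23. Other condensin and cohesin genes gave 3 higher and 7 lower of 17. The cohesin acetyltransferase ESCO1 was at 0.17, the cohesin subunit RAD21 at -0.22 and the cohesin loader MAU2 at -0.27.

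Further spindle, centrosome and cytokinesis genes gave 4 higher and 11 lower of 38. Median scramble levels were 108 CPM here, 159 CPM for the tubulins and 112 CPM for the other mitotic entry and exit genes. Calls over all tested genes were 13.5% higher and 15.3% lower, and at 100 CPM and above 11.5% and 46.4%. The microtubule polymerase CKAP5 rose by 0.26 (adjusted p = 3.24e-13) and KIF18B by 0.17, whereas TUBGCP3, of the gamma-tubulin ring, fell by 0.49 on the log2 scale (adjusted p = 8.43e-15) and PCNT, pericentrin, by 0.24. Tubulins gave 2 higher and 2 lower of 9 tested, TUBA1C at 0.12 and TUBA1B at 0.06 beside TUBB4B at -0.11 and TUBB6 at -0.10. Tubulin genes are near-identical in sequence, so these values are uncertain. Other mitotic entry and exit genes gave 1 higher and 5 lower of 17 tested, with PKMYT1, a kinase that inhibits CDK1, at 0.12 and the phosphatase CDC25A at -0.25.

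Regulators that transcribe or repress mitotic genes gave 2 higher and 12 lower of 22. Their median level in scramble was 144 CPM. Of all tested genes at 100 CPM and above 11.5% were higher and 46.4% lower, and between 20 and 100 CPM 16.8% and 23.0%. CDKN1A, the CDK inhibitor p21, rose from 5.29 ± 0.518 to 11.0 ± 0.197 CPM (SD, n = 3 each), or by 1.06 on the log2 scale (SE 0.0900, adjusted p = 4.95e-12). LIN54, the MuvB subunit that binds the cell cycle homology region, rose by 0.10 (adjusted p = 0.0190). RBL1, a pocket protein of the repressing complex, and RBBP4, a MuvB subunit, were lower at -0.19 (adjusted p = 2.76e-08) and -0.16 (2.15e-08). Genes of G1/S and replication, which come earlier in the cycle, gave 3 higher and 16 lower of 30, with a median of -0.07. At 100 CPM and above 1 of 21 was higher and 11 were lower (52.4%), beside the 46.4% lower of all tested genes at that level. RRM1 and TYMS, which make deoxynucleotides, were at -0.24 and -0.20, and the replication factors GINS3 and GINS1 at 0.30 and 0.16. The difference between this list and the 56 genes was not tested. In bulk RNA fewer cells in a phase and less RNA per cell cannot be told apart.

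**Figure D5:**
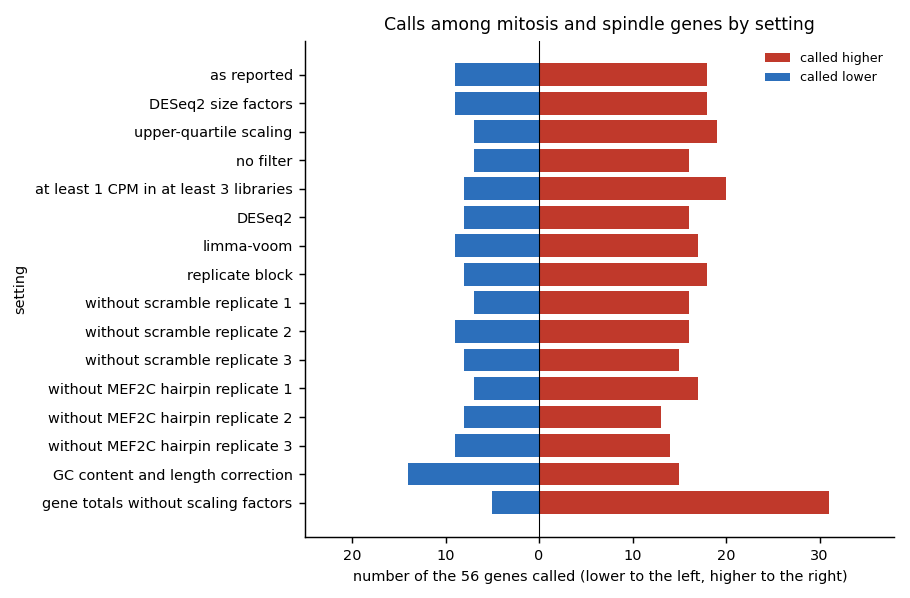
Number of the 56 genes called lower (left) and higher (right) in the reported setting and 15 others (y axis), named by what was changed. The GC content and length correction evens the counts to 15 higher and 14 lower, and gene totals alone give 31 higher and 5 lower.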

How the data were processed

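RNA of Karpas-45 cells was sequenced in 6 libraries, 3 per group. The authors deposited raw HTSeq counts per gene, and the submitters' processing notes name Trim Galore, STAR, HTSeq and hg38. Tool versions, annotation release and strand setting are not given in the sources used here. HTSeq's summary lines (19.2% to 31.4% of a library) were left out. Counts of 17677 genes passing filterByExpr (minimum count 10) were scaled by TMM and tested with edgeR 4.0.16 (R 4.3.3; quasi-likelihood, robust), with Benjamini-Hochberg adjustment over all of them. CPM values use TMM-scaled library sizes, and 3 reads correspond to between 0.0309 and 0.0658 CPM. The test was run on simulated counts with true log2 changes of 0.25 or more and genes without change. Only 2 of the 56 genes had an absolute log2 fold change over 0.25. That check therefore does not cover changes as small as most of those reported here. Exonic length and overlap come from GENCODE 29 (hg38). Alternatives used DESeq2 1.42.0, limma 3.58.1, other scalings and filters, a replicate block and leaving out each library. The 56 genes, the lists and the tests were chosen with earlier results of these data known. Values by library are given for MKI67, TOP2A, CCNB1, CDK1, PLK1, AURKA, AURKB, PTTG1, TPX2 and BIRC5 and, in each role, for the gene called in each direction with the smallest adjusted p and the called gene with the largest change. From each further list, up to 2 genes called in each direction with the smallest adjusted p were selected. Those selected but not described above are CENPP, ESCO2, ANAPC2, CENPO and PPP1CC. Their log2 fold changes were 0.12, 0.14, -0.12, -0.18 and -0.14.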

Additional observations from a re-analysis of the deposited data

How the results depend on the processing

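Across 16 alternatives, with 18 genes higher and 9 lower as reported, 17 of the 27 calls were kept in all of them and none changed sign. The median log2 fold change of the 56 genes, 0.03 as reported, was 0.0429 with upper-quartile scaling and 0.0439 with a filter of at least 1 CPM in at least 3 libraries. Leaving out 1 library at a time gave a median between 0.0323 and 0.0395, 13 to 17 genes higher and 7 to 9 lower. In those fits 10.3% to 11.6% of all tested genes were higher and 12.3% to 13.7% lower. The 56 genes had 12.5% to 16.1% lower, near those shares. The GC content and length correction, its uncorrected counterpart on the same genes and the use of gene totals alone were chosen after seeing the data. With the GC content and length correction the median was 0.00711, with 15 genes higher and 14 lower, and AURKB stood at -0.0624 and PLK1 at -0.0555. With gene totals alone the median was 0.0767, with 31 genes higher and 5 lower, and TOP2A stood at 0.0189. AURKB ranged from -0.0186 to 0.0586 when 1 library was left out. The causes were not tested. A GC correction from a genome sequence was not run, and GC content was taken from GENCODE 29 transcripts for 15903 genes. Same-numbered libraries did not deviate together (correlations of -0.0135, -0.0137 and -0.00314). With the replicate block 18 genes were higher and 8 lower, NCAPG being the call lost, against 13.1% and 14.6% of all tested genes. PRC1 and NUSAP1, the lowest in CPM, had standard errors of 0.108 and 0.145, against a median of 0.0268 over the 56 genes. The part of depth in these errors was not tested.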
